A study of Mus musculus with 6 samples.

Results

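The genes described here make and divide the arginine-derived products of activated microglia, nitric oxide and polyamines, or make itaconate. They are Nos2, Arg1, Arg2, Ass1, Asl, Slc7a2, Acod1, Gch1 and Odc1, and they were chosen by name for these roles, with earlier results of these data known. All 9 genes were found through the accession of a probe, among 23462 genes matched on the array, and they were measured by 10 of its 56605 probes, with a pair of probes for Odc1 and a single probe for each of the others. RNA came from BV2 cells, an immortalized mouse microglial line, on 3 arrays labelled as without PGC-1α overexpression (control) and 3 arrays labelled as with PGC-1α overexpression, and the RNA of all 6 arrays came from cells given LPS, a bacterial membrane component that activates these cells. The cell culture methods set LPS at 500 ng/ml and its exposure at 6 h, without naming the arrays. The coding sequence of PGC-1α was delivered by a lentivirus with a ubiquitin promoter and carrier cells were selected with puromycin. The methods also describe a negative control virus, and the labels do not say whether the control arrays carried it. The labels do not state that replicates came from separate cultures, so p-values measure the spread between these arrays, which may be technical. Arrays without LPS were not analysed here, so the values compare stimulated cells only.

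As background, nitric oxide synthase 2, encoded by Nos2, converts arginine to nitric oxide and citrulline in activated macrophages and microglia, with tetrahydrobiopterin as a cofactor. Arginase competes for the same arginine and yields ornithine, from which ornithine decarboxylase starts polyamine synthesis. Argininosuccinate synthase and argininosuccinate lyase turn citrulline back into arginine, and cationic transporters bring arginine into the cell. Itaconate is made in mitochondria from an intermediate of the citric acid cycle by the enzyme that Acod1 encodes, inhibits succinate dehydrogenase and restrains inflammatory responses.

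Signals are given as log2 of the intensity minus log2 of the 75th percentile of the same array, so a value of 0 means that percentile, and differences are overexpression minus control. The overexpression arrays were the dimmer ones as a whole, with 75th percentiles of 856 to 1268 intensity units against 1617 to 1893 in the control group. A probe was tested with limma, with Benjamini-Hochberg adjustment over all probes tested and a threshold of 0.05, if its signal in at least 1 group stood well above background on each of the 3 arrays. Of 39295 such probes, 53.5% passed, 35.2% as higher and 18.2% as lower, so that 65.9% of the probes that passed were higher. After quantile normalization, which gives all arrays the same distribution, 43.1% passed, 22.7% as higher and 20.4% as lower, and 52.6% of those that passed were higher. The median difference of all tested probes was 0.25 under the first scaling and 0.05 after quantile normalization, so the difference of each tested member is also given relative to the first of these medians. With 3 arrays against 3, an exact permutation test cannot give a two-sided p below 0.1.

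The targeted gene gave no firm check of the labels. Ppargc1a, which encodes PGC-1α, had a pair of probes (NM_008904), both dim and both below the limit for testing. On the brighter, A_51_P279038, the signals were -6.21, -6.37 and -7.71 in control cells against -5.70, -5.28 and -5.90 with overexpression, without overlap. In either group only 2 of 3 arrays measured this probe well above background. On the other, A_55_P2745394, the groups overlapped, with means of -6.76 ± 0.40 (SD, n = 3) and -6.50 ± 0.45 (SD, n = 3). Where these probes lie in the transcript was not analysed here, so whether they can measure the delivered coding sequence is not known. Directions therefore refer to the labels. Of 12 microglia and macrophage markers, 10 were well above background on all 6 arrays, among them Itgam, Cd68 and Csf1r. Cx3cr1 and P2ry12 were well above background on none, and Tmem119, a marker of homeostatic microglia, averaged -0.085 on the control and -2.76 on the overexpression arrays. Of 13 markers of other cell types, 11 were well above background on all 6 arrays, with Snap25 and Col1a1 the brightest at control means of 4.65 and 3.53. Their part in the results below was not tested.

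Acod1 was lower and Nos2 higher on the overexpression arrays, and these were the members with the largest tested differences in each direction. Ass1 and the brighter Odc1 probe were also higher. Gch1 was lower on all 3 overexpression arrays, but this passed the threshold after quantile normalization and in the authors' normalized values and not under the main scaling. Slc7a2, Asl and the dimmer Odc1 probe did not pass under the main scaling. Arg1 was close to background and Arg2 was in it. In all, 8 of the 10 probes, of 7 genes, could be tested, and 4 of these 8 passed, 3 higher and 1 lower, beside 53.5% of all probes (35.2% higher and 18.2% lower). After quantile normalization 4 passed again, 2 higher (Nos2 and Ass1) and 2 lower (Acod1 and Gch1), beside 43.1% of all probes. The number of members that passed therefore does not set them apart from the array as a whole. The groups did not overlap in 5 of the 6 member probes that were tested and had values on every array, beside 63.6% of all such probes (41.4% with overexpression above control and 22.2% below). The plot of signals by array shows all 10 probes.

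The first question was whether the nitric oxide synthase itself differed. Nos2 (NM_010927, probe A_55_P2158741) had unscaled intensities of 4059, 4014 and 4565 in control cells, and of 5552, 5539 and 6078 in cells with PGC-1α overexpression. All 3 overexpression arrays were thus brighter for Nos2 even though they were dimmer as a whole. Scaled, the signals were 1.33, 1.30 and 1.27 against 2.26, 2.69 and 2.26. The control arrays lay close together (SD 0.03), and replicate 2 was the highest of the overexpression arrays. The difference was 1.11 (standard error 0.16, adjusted p = 0.0015 from limma), a 2.15-fold higher signal, or 0.86 relative to the median of all probes. In RNA of a whole culture, a larger share of cells with the transcript and more transcript per cell cannot be told apart. After quantile normalization the difference was 0.88 (adjusted p = 0.0021 from limma). The arrays lay on 2 slides, with replicates 1 and 2 of each group on slide 1 and replicate 3 on slide 2. Within slide 1 the difference was 1.16, and between the single pair of arrays on slide 2 it was 0.99. Over all alternatives it lay between 0.85 and 1.18, past the threshold in each that gave a test.

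Acod1, also known as Irg1, had the largest difference among the 8 tested probes. Its probe (NM_008392, A_51_P123625) dropped from unscaled intensities of 4856, 4942 and 5121 in control cells to 777, 582 and 740 with overexpression. The scaled signals were 1.59, 1.60 and 1.44 against -0.57, -0.56 and -0.78. All 3 control arrays lay above the 75th percentile of their array and all 3 overexpression arrays below it. The control mean was 1.54 ± 0.09 (SD, n = 3) and the overexpression mean -0.64 ± 0.12 (SD, n = 3). The difference of -2.18 (standard error 0.13, adjusted p = 5.2e-05 from limma) was a 4.52-fold lower signal, and -2.42 relative to the median of all probes. Among all tested probes, 1.42% had a difference as low or lower. Quantile normalization gave -2.25 (adjusted p = 8.4e-05 from limma) and the authors' values -2.11. It was -2.16 within slide 1 and -2.21 between the arrays of slide 2, and stayed between -2.29 and -2.11 over all alternatives. All 6 arrays measured the transcript well above background, so it was lower with overexpression but still measured.

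The promoter of Acod1 is shown because the gene had the largest difference among the tested probes, and that of Gch1 because it, too, had lower signals. Both are the 250 bases before the transcription start from RefSeq, build GRCm38.p6, written 5′ to 3′ on the strand of the gene. In the promoter table used here 4 of the 9 genes were matched (Acod1, Ass1, Gch1 and Odc1). Acod1 lies on the plus strand at chr14:103046762-103047011 and Gch1 on the minus strand at chr14:47189414-47189663. Capitals mark every match, on either strand, to the TATA box (TATAAA), the κB motif, the IRF motif (a pair of GAAA repeats with any 2 bases between them), AP-1 (TGANTCA), the ERR motif (AAGGTCA), the core of the cyclic AMP response element (TGACG), the E-box (CACGTG), the GC box (GGGCGG) and the CCAAT box, with no overlaps among the matches shown.
Acod1: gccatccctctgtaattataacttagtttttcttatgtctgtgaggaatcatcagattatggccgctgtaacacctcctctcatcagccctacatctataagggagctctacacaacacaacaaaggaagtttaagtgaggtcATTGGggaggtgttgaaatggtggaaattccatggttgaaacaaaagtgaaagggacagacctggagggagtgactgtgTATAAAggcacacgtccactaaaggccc
Gch1: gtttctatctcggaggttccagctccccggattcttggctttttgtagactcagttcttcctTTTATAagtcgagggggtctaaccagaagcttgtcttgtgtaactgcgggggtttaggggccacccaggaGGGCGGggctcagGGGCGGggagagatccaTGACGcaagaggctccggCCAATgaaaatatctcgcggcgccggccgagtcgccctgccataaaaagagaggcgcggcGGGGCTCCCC

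In the Acod1 window the TATA box began 28 bases before the start, and the other match was a CCAAT box on the minus strand. Of 32851 promoters of this length, 12.4% held a TATA box and 33.9% a CCAAT box. The Gch1 window held 2 GC boxes (32.7% of all promoters hold at least 1), the core of the cyclic AMP response element (17.8%), a CCAAT box, a TATA box on the minus strand and a κB match in the last 10 bases (3.90%). Neither window held the ERR motif (4.08%), AP-1 (6.75%), the E-box (6.02%) or the IRF motif (2.98%). These are matches of letters only, and PGC-1α binding was not analysed here.

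Gch1 encodes GTP cyclohydrolase 1, which starts the synthesis of the cofactor of nitric oxide synthase. Its unscaled intensities (NM_008102, A_55_P2106175) were 5408, 5861 and 7158 in control cells and 3457, 2634 and 3911 with overexpression. Scaled to each array, they became 1.74, 1.85 and 1.92 against 1.58, 1.62 and 1.62. The groups still did not overlap, but neither did those of 63.6% of all probes with values on every array. The difference was -0.23 (95% interval -0.52 to 0.06, adjusted p = 0.15 from limma) and -0.47 relative to the median of all probes. It was -0.42 (adjusted p = 0.022 from limma) after quantile normalization and -0.40 (adjusted p = 0.026 from limma) in the authors' values. Within slide 1 it was -0.19 and on slide 2 -0.29. The sign was negative in all 21 alternatives, and the call depended on the normalization.

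Ass1, whose product joins citrulline and aspartate in the step that limits arginine regeneration, was measured well above background in all 6 samples (NM_007494, A_55_P2004781). Its scaled signals were -2.64, -2.49 and -2.56 in control cells and -2.0, -1.82 and -2.20 with overexpression, without overlap. The difference was 0.56 (standard error 0.15, adjusted p = 0.014 from limma), a 1.47-fold higher signal, but 0.31 relative to the median of all probes. It was 0.53 (adjusted p = 0.018 from limma) after quantile normalization. It was 0.66 within slide 1 and 0.37 on slide 2. Before scaling, the intensities overlapped, with 259, 290 and 320 against 290, 243 and 277, so the higher value of Ass1 is a rise relative to the rest of its arrays. Asl, whose product releases arginine in the following step, did not follow it. Its probe (NM_133768, A_55_P2905225) read 1.86, 1.91 and 1.95 in control cells and 1.75 and 2.25 on overexpression replicates 1 and 2, while the spot on replicate 3 was marked as an outlier and left out. The difference of 0.09 (95% interval -0.35 to 0.54, adjusted p = 0.69 from limma) was -0.15 relative to the median of all probes. It turned to -0.16 after quantile normalization and -0.11 in the authors' values.

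Slc7a2 encodes the cationic amino acid transporter CAT2, which macrophages induce with nitric oxide synthase. Its probe (NM_001044740, A_55_P2849189) read -0.81, -0.76 and -0.55 in control cells and -0.55, -1.22 and -0.42 with overexpression. Overexpression replicate 2 lay below all other arrays and the groups overlapped. The difference was -0.02 (95% interval -0.53 to 0.49, adjusted p = 0.93 from limma), -0.27 relative to the median of all probes and 0.01 after quantile normalization. Without overexpression replicate 2 it was 0.22, and without control replicate 3 it was 0.06, neither past the threshold.

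The arginase transcripts were the dimmest of the set. Arg1, the cytosolic arginase used as a marker of alternative activation (NM_007482, A_51_P303160), had unscaled intensities of 28.9, 35.5 and 27.2 in control cells and 4.03, 6.63 and 4.46 with overexpression. Only 2 of 3 control arrays and 0 of 3 overexpression arrays measured it well above background, so it was not tested. The scaled signals were -5.81, -5.52 and -6.12 against -8.17, -7.01 and -8.15, without overlap. The overexpression values lie in the background, so the size of the difference is uncertain. With each overexpression value replaced by the lowest signal that counted as well above background on its array, Arg1 was 1.40-fold lower. This figure is not a strict bound, because a probe can lie above that lowest signal and still not count. The Arg1 control intensities all exceeded the lowest such intensity of their array (12.4, 14.1 and 24.3), yet only 2 of 3 counted. The figure applies only to the deposited background subtraction with scaling to the 75th percentile. It takes the mean of all 3 control arrays, including the one on which the probe was not well above background. When dim probes were kept in the fit, the difference was -1.96 (adjusted p = 0.0089 from limma), and in the authors' values it was -2.14 (adjusted p = 0.0019 from limma). With another background correction, normexp, which raises all dim signals, it was 0.19 under the 75th percentile and -0.28 with quantile normalization. Neither its size nor its sign was therefore independent of how the background was treated. The value of 0.19 still lay below the median difference of all tested probes in that setting, 0.30. Arg2, the mitochondrial arginase (NM_009705, A_52_P374897), reached that limit on 0 of 6 arrays. Its scaled signals were -8.39, -7.57 and -8.41 in control cells and -7.53, -8.22 and -8.18 with overexpression, which overlapped, and no fold is given.

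Odc1 encodes ornithine decarboxylase, the rate-limiting enzyme of polyamine synthesis, and both of its probes (NM_013614) were bright on all arrays. The brighter probe, A_52_P436238, read 2.79, 2.50 and 2.78 in control cells and 3.26, 3.71 and 3.41 with overexpression, without overlap. The difference was 0.77 (standard error 0.17, adjusted p = 0.0071 from limma), or 0.53 relative to the median of all probes. It shrank to 0.34 (adjusted p = 0.078 from limma) after quantile normalization and to 0.33 (adjusted p = 0.081) in the authors' values, and no longer passed. It was 0.84 within slide 1 and 0.63 on slide 2. The other probe, A_55_P1995173, read 2.15, 1.89 and 2.36 against 2.51 and 2.54 on overexpression replicates 2 and 3, with replicate 1 left out as an outlier spot. Its difference of 0.39 (95% interval -0.04 to 0.82, adjusted p = 0.11 from limma) had the same sign. It was 0.15 relative to the median of all probes and 0.09 after quantile normalization. The value of Odc1 therefore depended on the normalization at both probes.

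**Figure D1:**
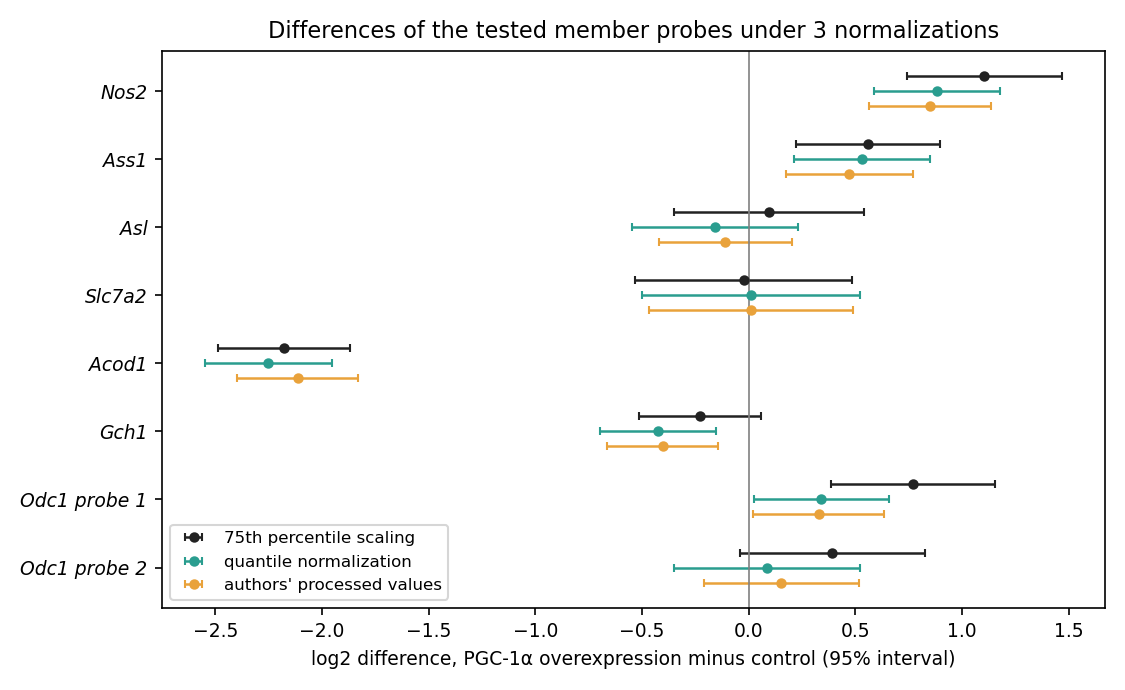
The horizontal axis is the log2 difference, PGC-1α overexpression minus control, with its 95% interval from limma, for the 8 tested probes under scaling to the 75th percentile (black), quantile normalization (green) and the authors' processed values (orange). Acod1 and Nos2 stay on their side of 0 under all 3, while Gch1 leaves 0 and Odc1 moves toward it after quantile normalization.

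Because scaling by the 75th percentile cancels when a pair of probes is compared on the same array, Nos2 was also set against 4 other members within each array. The values are differences of log2 signals, given as deviations from the control mean of each pair. Nos2 against Acod1 was 3.08, 3.49 and 3.28 with overexpression and between -0.06 and 0.08 in control cells. The ratio of the 2 signals was thus 9.74-fold higher with PGC-1α. Nos2 against Gch1 was 1.22, 1.61 and 1.17 on the overexpression arrays, a mean rise of 1.33. Nos2 against Slc7a2 rose by 1.13, with overexpression replicate 2 at 1.91 and the others at 0.80 and 0.67. Nos2 against Ass1 rose by 0.55 and by 0.35 after quantile normalization, the smallest rise of the 4 under the main scaling. The groups did not overlap in any of the 4 pairs (exact permutation test, two-sided p = 0.1 for each and 0.1 after adjustment over the 4 pairs, the smallest p that 3 arrays against 3 allow). For Acod1 and Gch1 the lack of overlap was fixed in advance, because Nos2 was higher and they were lower on every overexpression array. How often Nos2 against any other gene would not overlap was not analysed. A ratio shows that the pair changed unequally, not which of them changed. The planned comparison of Nos2 with Arg1 could not be made because Arg1 was not tested.

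**Figure D2:**
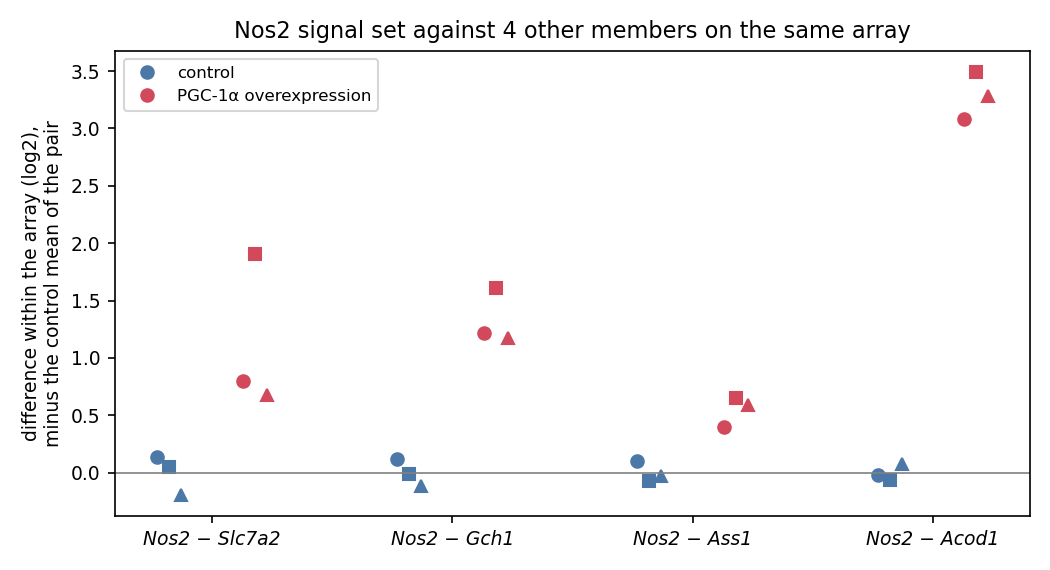
The vertical axis is the within-array difference between the log2 signals of Nos2 and the named gene, minus the mean of that difference over the 3 control arrays (blue); overexpression arrays are red, and symbols mark replicates 1 (circle), 2 (square) and 3 (triangle). All red points lie above the blue ones of their pair, by the most for Acod1, with a mean of 3.28, and by the least for Ass1, with a mean of 0.55.

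To see what lay around these genes, 49 further genes of the same pathways were listed. Of the 48 with a probe, 43 were tested, each by its brightest tested probe. With PGC-1α 13 of them (30.2%) were higher and 7 (16.3%) lower, and 23 did not pass. Among all 17172 genes tested this way, 53.0% passed, 34.6% as higher and 18.4% as lower, and the median difference was 0.29 for the list and 0.23 for all genes. After quantile normalization 6 of the 43 were higher and 8 lower, against 21.2% and 20.9% of all genes. The list as a whole therefore did not stand apart, and the values of its groups follow.

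Among genes of nitric oxide and citrulline, 1 of 5 tested was higher and 2 lower. Ddah1, which breaks down the methylarginines that inhibit nitric oxide synthase, was higher by 0.93 (adjusted p = 0.021 from limma, standard error 0.27), from a low control mean of -4.24. Before scaling, its intensities overlapped, with 96.7, 104.6 and 72.8 in control cells against 112.0, 117.5 and 97.4, so this is a rise relative to the rest of its arrays. Its other probe was not tested. The paralog Ddah2 fell by 0.42 (adjusted p = 0.035 from limma), and Nos1, the neuronal synthase, fell by 0.61 (adjusted p = 0.040 from limma), with both of its probes past the threshold. The brighter Nos1 probe passed after quantile normalization (-0.64, adjusted p = 0.045 from limma). It did not pass in the authors' values (-0.57, adjusted p = 0.052 from limma) or with dim probes kept (adjusted p = 0.079 from limma). Nos3 and both listed subunits of the nitric oxide receptor, Gucy1a1 and Gucy1b1, did not meet the filter. Of 4 tested transporters, Slc7a6 (-0.68) and Slc7a7 (-0.42), light chains that exchange cationic for neutral amino acids, were lower. Their shared heavy chain Slc3a2 was higher by 0.75 (adjusted p = 0.0038 from limma), but by 0.09 (adjusted p = 0.50) after quantile normalization. Slc7a1, the transporter CAT1, did not pass (-0.17, adjusted p = 0.34 from limma).

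In tetrahydrobiopterin metabolism, the genes for the steps after Gch1, Pts (0.20) and Spr (0.39), and for the recycling enzyme Qdpr (0.30) did not pass. Pcbd1, which takes part in cofactor recycling, was the exception. Its signals were -3.79, -3.58 and -4.39 in control cells and -5.50, -4.92 and -5.91 with overexpression. The difference was -1.52 (standard error 0.29, adjusted p = 0.0046 from limma) and -1.71 after quantile normalization. Gchfr, the feedback regulator of GTP cyclohydrolase, did not pass (-0.11, adjusted p = 0.49 from limma) and did so after quantile normalization (-0.50, adjusted p = 0.0099).

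In polyamine metabolism 5 of 9 tested genes were higher and none was lower, beside 34.6% higher and 18.4% lower among all genes. Smox, spermine oxidase, which converts spermine back to spermidine, had the largest difference of the list. It read 1.67, 1.69 and 1.54 in control cells and 3.31, 3.93 and 3.18 with overexpression, a 3.58-fold higher signal (1.84, standard error 0.21, adjusted p = 5.6e-04 from limma). Its other tested probe gave 1.71, and the value was 1.52 (adjusted p = 7.4e-04 from limma) after quantile normalization. The synthases Srm (0.52) and Sms (0.63), the acetyltransferase Sat1 (0.64) and the antizyme Oaz1 (0.58), which targets ornithine decarboxylase for degradation, were also higher. After quantile normalization these 4 no longer passed, with differences from -0.09 to 0.38, as for Odc1. Smox was then the only polyamine gene of the 9 that passed, beside 21.2% of all genes that passed as higher. The number of polyamine genes that were higher therefore depended on the normalization.

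In the group of ornithine, proline, creatine and the urea cycle, 3 of 10 were higher and 1 lower. The higher ones were Cps1 (0.63), Nags (0.72) and Gatm (0.73), all with control means between -5.76 and -4.26. They passed after quantile normalization too (adjusted p = 0.041, 0.041 and 0.011 from limma). Before scaling, the intensities of all 3 overlapped between the groups, so these are rises relative to the rest of their arrays. Slc25a15, the mitochondrial carrier of ornithine, fell by 0.47 (adjusted p = 0.027 from limma). Oat, which links ornithine to proline and glutamate, did not pass (-0.09, adjusted p = 0.59 from limma). Next to itaconate, 3 of 9 tested genes were higher and 1 lower. The mitochondrial citrate carrier Slc25a1 was higher by 0.90 (adjusted p = 0.0038 from limma, standard error 0.16), and by 0.52 (adjusted p = 0.017) after quantile normalization. Suclg2 (0.58) and Sdha (0.49), a succinyl-CoA ligase subunit and the succinate dehydrogenase subunit, passed only before quantile normalization. Slc13a3, a plasma membrane carrier of dicarboxylates, was the lower one (-0.41). Acod1, at -2.18, lay below all 43 genes of the list, of which Pcbd1 was the lowest.

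**Figure D3:**
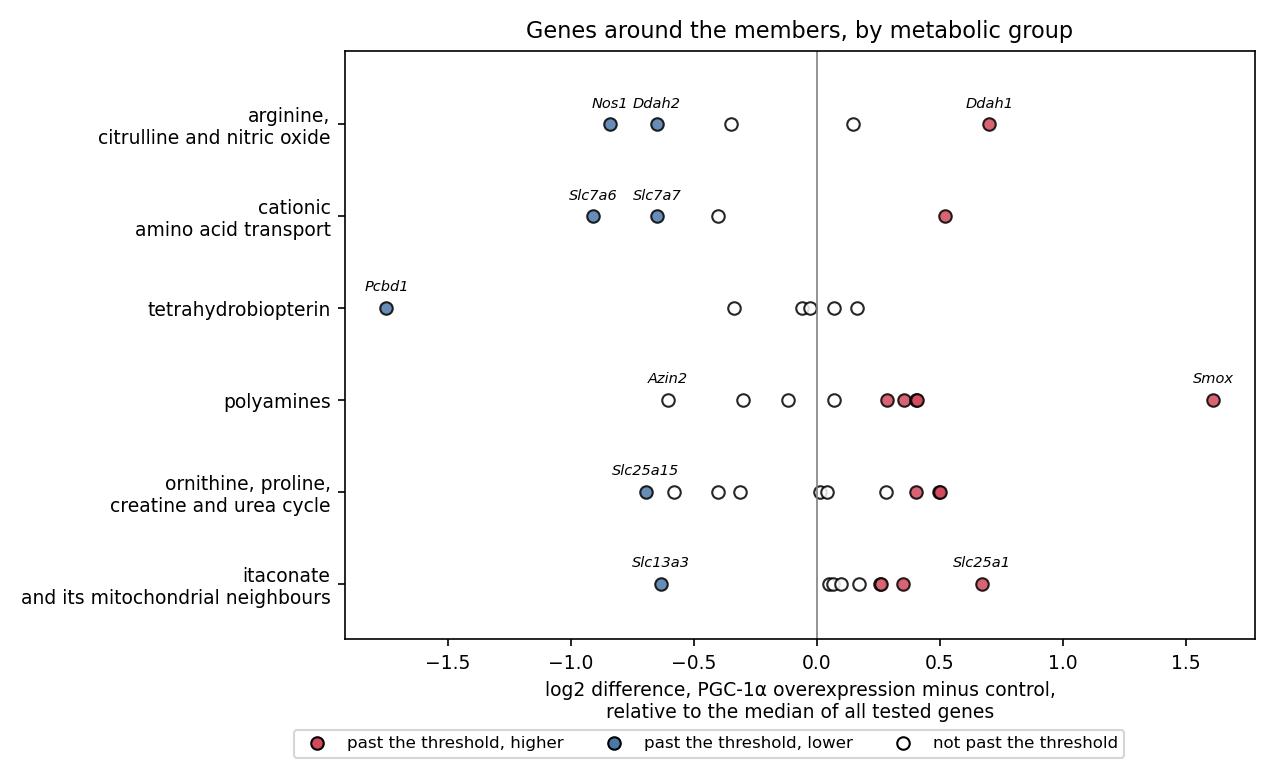
Each point is 1 of the 43 tested genes of the wider pathways, in 6 groups, by its log2 difference (PGC-1α overexpression minus control) relative to the median of all tested genes, 0.23. Red and blue points passed the threshold as higher and lower, white points did not, and names are given beyond 0.6 in either direction; Smox lies farthest right at 1.61 and Pcbd1 farthest left at -1.75.

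Likeness of pattern was read from Pearson's r over the 6 arrays, among 16234 other genes with values on every array. The genes nearest to Nos2 were Tekt1, Mirg and Cdv3, and those nearest to Acod1 were Cdk7, Serpina3f and AW209491, each with r above 0.999. Of all genes, 391 had r above 0.99 with Nos2 and 238 with Acod1. These 6 points fall into 2 groups and share the scaling of each array, so the likeness describes the split between the groups and carries no test.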

How the data were processed

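Agilent arrays of LPS-treated BV2 cells were compared, 3 without and 3 with PGC-1α overexpression, grouped by their titles. The deposited intensity values had been measured by the authors in the green channel with Agilent Feature Extraction 11.5.1.1, with background subtraction and detrending within each array and no scaling between arrays. The authors also deposited log2 values of 42110 probes, normalized between arrays in GeneSpring by a procedure not given in the sources used here; each column correlated with its own array at r of 0.9988 or higher across probes, and the columns share a median of 8.29. Here log2 intensities were scaled to the 75th percentile of the 59305 spots other than controls, outlier spots as marked by the software (149 to 1590 on an array) were dropped, and repeated spots were averaged. No spot was saturated. Probes were named by matching their accession to RefSeq genes of GRCm38.p6 (59.7% of 56605 probes matched); the array design names an older build, so no probe coordinates are given.

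The main comparison used limma 3.58.1 (lmFit, eBayes) under R 4.3.3. Its two-sided p-values were adjusted by Benjamini-Hochberg over the 39295 probes that had values on 2 or more arrays per group and that, in at least 1 group, all 3 arrays measured well above background. The fit was tested on simulated data. No pair of arrays held identical values. The number of arrays limits the precision, and so does the background for dim probes. The genes, the wider pathway list and the rule for naming its genes (among those past the threshold without overlap, the 4 that rose most and the 4 that fell most, and the 3 genes nearest in pattern to Nos2 and Acod1) were chosen with earlier results of these data known; other genes of the list are named as examples of their group, after their values were seen. No gene could be found near Arg1 in pattern, since Arg1 was not tested. Alternatives were other normalizations, background corrections, filters, variance models and blocks, the authors' values, and each array left out in turn.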

Additional observations from a re-analysis of the deposited data

How the results depend on the processing

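The differences of Nos2 and Acod1 kept their sign and their side of the threshold in every alternative that gave a test, and Ass1 did so too. With quantile normalization the share of higher probes among those that passed was 52.6%, the median of the pathway list relative to all genes -0.069, Asl -0.16, the brighter Odc1 probe 0.34, Slc7a2 0.011, Gch1 -0.42 and Nos2 against Ass1 0.35. The authors' values gave 51.9%, -0.084, -0.11, 0.33, 0.011, -0.40 and 0.38 for the same results, with Arg1 at -2.14 and Nos2 against Acod1 at 2.96. Normexp with quantile normalization gave 49.0%, -0.078, -0.18, 0.29, 0.0019, -0.36 and 0.39, with Arg1 at -0.28, Nos2 against Acod1 at 3.02, the brighter Ppargc1a probe at 0.18 and 12 pathway genes that passed in place of 20. Normexp with the 75th percentile gave 76.7% higher, a list median of -0.023, Arg1 at 0.19 and the dimmer Odc1 probe at 0.45, past the threshold. That Odc1 probe also passed with outlier spots kept (0.46) and with a variance trend (0.39). Scaling to the median gave Asl -0.035, and array weights gave Asl -0.11 and Slc7a2 0.16. Without a filter the list median was -0.048 and Arg1 -1.96. With the brightest probe of each gene only, 9637 genes passed, fewer than the 21018 probes by construction.

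Within slide 1, Arg1 met the filter through the control arrays only and passed (-1.93). Its control values were thereby set against overexpression values in the background, so the size is uncertain. The brighter Ppargc1a probe also met the filter and passed within slide 1 (0.81). On slide 2, with 1 array against 1, Slc7a2 was 0.13, Ass1 0.37, Gch1 -0.29, the dimmer Odc1 probe 0.19 and the Ppargc1a probes 0.71 and 1.80. With the slide as a block no member changed its call. With each array left out in turn, 15583 to 21564 probes and 13 to 18 pathway genes passed (13 without control replicate 3 or overexpression replicate 1), the list median was 0.017 to 0.10, Slc7a2 -0.18 to 0.22, Asl -0.15 to 0.34, Arg1 -2.34 to -1.77 and the brighter Ppargc1a probe 0.67 to 1.42. Arg1 passed without control replicate 3 (-2.11), again through the control arrays only. The brighter Ppargc1a probe met the filter and passed without control replicate 3 (0.67, adjusted p = 0.048 from limma) and without overexpression replicate 3 (1.28, adjusted p = 0.037 from limma). With the replicate number as a block 22815 probes passed and no member changed its call; same-numbered arrays did not deviate together throughout (r of -0.21, 0.003 and 0.59), so the numbers were not taken as pairs. Where no cause is named, the cause was not tested.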

Other observations

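Several genes of the pathways were measured by more than 1 tested probe, which shows how far a value depends on the probe. Among the 18 such genes, Odc1 included, none had probes past the threshold in opposite directions. The probes of Smox gave 1.71 and 1.84, those of Slc25a1 0.77 and 0.90, those of Gatm 0.73 and 1.06, and those of Nos1 -0.83 and -0.61. Differences of both signs occurred in 3 genes, Sms (-0.04 to 0.63 over 3 probes), Oaz2 (-0.20 to 0.30 over 3 probes) and Paox (-0.25 to 0.11 over 2 probes). In Slc7a6 the brighter probe fell by 0.68 and the other gave -0.21 and did not pass. Where the probes lie in their transcripts was not analysed here.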
